A study of Homo sapiens with 12 samples.

Results

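The libraries described here are the 3 of the series' 12 that were made from EndoC-βH1 cells given a negative control siRNA and the solvent DMSO. They were chosen by their titles alone, Neg siRNA #1 to #3, and no library of another group enters any value below. EndoC-βH1 is an established human beta-cell line derived from fetal pancreas, immortalised with SV40 large T antigen under an insulin promoter and with telomerase. The cells grew on a Matrigel and fibronectin coating in a medium whose stated components include albumin, nicotinamide, transferrin and selenite. They were transfected with AllStars Negative Control siRNA using Lipofectamine RNAiMAX. DMSO at a dilution of 1:1000 followed 2 days later and was left on for 24 hours. Replicates 1 and 2 came from passage 74 and replicate 3 from passage 75, so passage 75 and replicate 3 cannot be told apart. The rest of the series received siRNAs against the long noncoding RNA TUNAR, the GSK3 inhibitor 1-AKP at 5 µM, or both. Untransfected cells, cells without DMSO and primary islets are not among the groups, so the baseline is that of a transfected line held in solvent, from 1 line. Nothing in the labels says that the 3 replicates were separate cultures beyond their numbers and passages, so the spread between them may be partly technical.

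Beta cells are the endocrine cells of the pancreatic islet that make insulin and store it, with islet amyloid polypeptide and granins, in dense-core secretory granules. Glucose enters the cell and is phosphorylated, its metabolism raises ATP, ATP-sensitive potassium (KATP) channels close, and calcium entering through voltage-gated channels releases the granules. Receptors for gut hormones, fatty acids, calcium and somatostatin tune this release, and a set of transcription factors that includes PDX1, NKX6-1, NKX2-2, NEUROD1, PAX6 and MAFA keeps the identity of the cell.

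Levels are given as FPKM, fragment counts scaled by the length of the gene and by the library total, so that genes of different length can be set side by side. The 3 libraries held 15792130, 15967349 and 15868371 expected counts and listed 18976, 18888 and 18989 genes above 0. A total of 20181 genes had an entry in at least 1 of them and 17817 in all 3. Ribosomal RNA took 3.02%, 2.74% and 2.94% of the counts although polyadenylated RNA had been enriched. Replicate 1 stood apart from the others: the median absolute log2 difference over the 13711 expressed genes was 0.11 between replicates 1 and 2 and 0.12 between 1 and 3, against 0.07 between 2 and 3. Pearson's r of log2(FPKM + 1) across these genes, which are not independent replicates, was 0.986, 0.986 and 0.990 in the same order. TUNAR, the siRNA target elsewhere in the series, stood at 4.53, 6.22 and 5.51 FPKM in replicates 1, 2 and 3. Values of 3 libraries are always given in that order, and means are given with the SD of the 3 libraries (n = 3).

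All 8 beta-cell markers were expressed, which is taken as a mean of at least 1 FPKM, and 67.9% of the 20181 genes with an entry met that threshold. Counts of expressed list members below are out of the whole list, members without an entry included. The 67.9% is over genes with an entry alone, so only the members with an entry can be read beside it. INS, the gene of preproinsulin, had 21334, 24229 and 27189 FPKM and ranked first of all genes in every library. CHGA, the granule protein chromogranin A, had 5275, 5418 and 5408 FPKM and ranked 2 by mean and 3 by median FPKM, as the RNA28SN5 locus of ribosomal RNA exceeded it in replicates 1 and 3. INS thus stood 4.52 times as high as CHGA per length, and neither gene's 3 values overlapped with the other's. CHGB, a second granin, had 279, 248 and 219.8 FPKM. PDX1, a homeodomain factor of the insulin promoter, had 127, 132 and 134 FPKM, and NKX6-1, a repressor of other islet fates, 110.3, 119.6 and 119.9 FPKM. PAX6 had 59.1, 63.2 and 61.6 FPKM, IAPP, the amyloid polypeptide released with insulin, 69.5, 47.97 and 53.5 FPKM, and NKX2-2 51.2, 56.7 and 59.7 FPKM. The order by mean was INS, CHGA, CHGB, PDX1, NKX6-1, PAX6, IAPP and NKX2-2. Of the 7 neighbouring pairs in that order 5 had values that did not overlap, and IAPP overlapped with both PAX6 above it and NKX2-2 below it.

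The defining markers of a beta cell were thus all present, at levels that covered a wide range. INS averaged 24251 ± 2927 FPKM (SD, n = 3) and IAPP 56.99 ± 11.2 FPKM, so that INS was 307, 505 and 508 times as high as IAPP. Replicate 1 had the lowest INS and the highest IAPP of the 3. CHGA varied least of these genes, with a coefficient of variation (CV, the SD as a share of the mean) of 1.49%, against 12.1% for INS and 19.6% for IAPP.

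**Figure D1:**
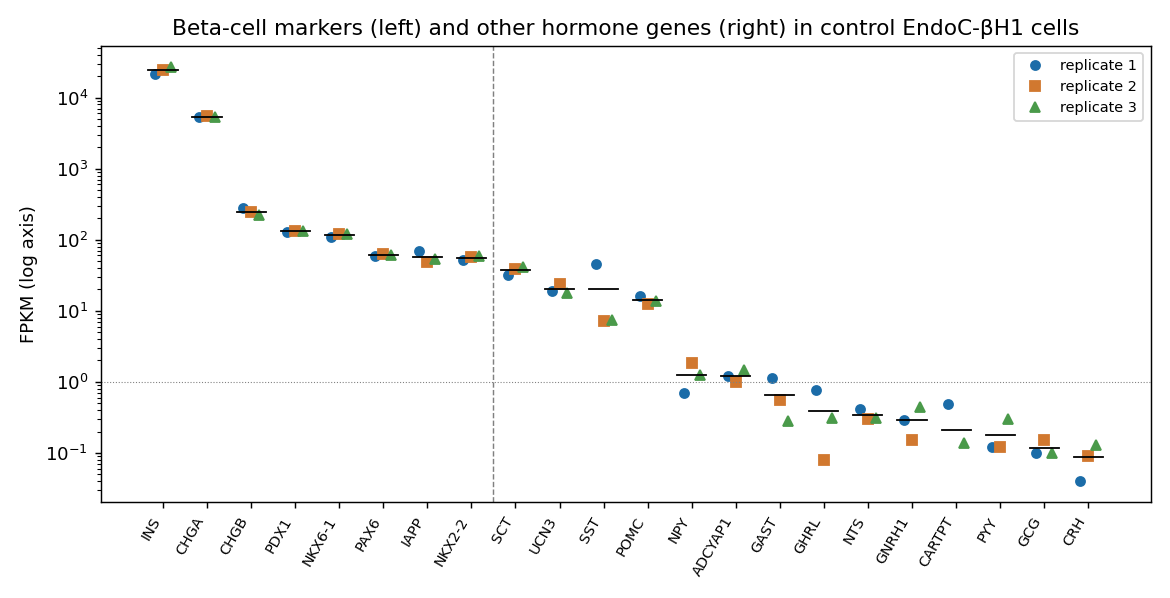
FPKM on a log axis of the 8 beta-cell markers and, right of the dashed line, of other hormone genes with an entry, with 1 point for each of the 3 control libraries and a bar at their mean. The dotted line marks 1 FPKM, and SST lies at 46.1 FPKM in replicate 1 and at 7.16 and 7.31 FPKM in replicates 2 and 3.

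Promoter sequences are printed for 5 genes picked by their values. These are the highest 2 genes, the marker with the widest spread between replicates, and SST and G6PC2. Of the hormone and glucose genes with a mean expected count of at least 100, these alone had a highest-to-lowest ratio above 2. Whether the sequences bear on these values was not tested. Each sequence is the run of 250 bases that ends just before the annotated start, read 5′ to 3′ on the strand of the gene, from RefSeq's promoter table on GRCh38.p14. Capitals mark 5 motifs searched on both strands: TATAAA and TATATAA, the spellings of the TATA box, TGACGTCA, the cyclic AMP response element (CRE), CATCTG, the E box core of the insulin gene, and CTAATG, an A box spelling of the insulin gene. The TATA spellings can overlap each other, since TATATAA followed by A also holds TATAAA.
INS, chr11:2161210-2161459, minus strand: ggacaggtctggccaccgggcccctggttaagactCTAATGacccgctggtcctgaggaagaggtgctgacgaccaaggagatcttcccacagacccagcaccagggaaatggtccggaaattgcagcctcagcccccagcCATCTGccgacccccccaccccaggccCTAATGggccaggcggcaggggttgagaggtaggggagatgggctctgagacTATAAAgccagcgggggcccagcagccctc
CHGA, chr14:92922900-92923149, plus strand: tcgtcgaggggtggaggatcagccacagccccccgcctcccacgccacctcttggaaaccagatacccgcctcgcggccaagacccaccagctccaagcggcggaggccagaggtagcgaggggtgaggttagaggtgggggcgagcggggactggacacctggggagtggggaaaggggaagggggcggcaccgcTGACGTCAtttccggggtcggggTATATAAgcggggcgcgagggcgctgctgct
IAPP, chr12:21372652-21372901, plus strand: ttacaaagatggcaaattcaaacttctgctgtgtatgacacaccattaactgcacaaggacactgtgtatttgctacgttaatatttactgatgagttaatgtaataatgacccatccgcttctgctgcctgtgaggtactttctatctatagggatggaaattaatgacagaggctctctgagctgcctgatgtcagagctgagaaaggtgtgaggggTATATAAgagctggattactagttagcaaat
SST, chr3:187670395-187670644, minus strand: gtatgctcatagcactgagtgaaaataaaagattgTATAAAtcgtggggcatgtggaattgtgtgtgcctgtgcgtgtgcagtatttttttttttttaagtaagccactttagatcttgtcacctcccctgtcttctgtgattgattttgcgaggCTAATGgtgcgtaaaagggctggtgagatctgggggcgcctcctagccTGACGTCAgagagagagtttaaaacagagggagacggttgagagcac
G6PC2, chr2:168901041-168901290, plus strand: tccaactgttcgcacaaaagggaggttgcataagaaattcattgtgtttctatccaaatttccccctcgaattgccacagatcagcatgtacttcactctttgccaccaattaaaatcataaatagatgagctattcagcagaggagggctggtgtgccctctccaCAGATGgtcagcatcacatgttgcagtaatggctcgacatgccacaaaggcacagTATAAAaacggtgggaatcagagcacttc
Positions are counted back from -1, the base next to the start. The INS window held TATAAA from -30 to -25, CATCTG from -109 to -104 and CTAATG at 2 places, from -215 to -210 and from -82 to -77. The CHGA window held TATATAA from -31 to -25 and TGACGTCA from -54 to -47. The IAPP window, 1 of 2 listed for this gene, held TATATAA from -31 to -25 and none of the other 4 motifs. In the SST window TGACGTCA lay from -47 to -40, CTAATG from -95 to -90 and TATAAA from -215 to -210. The G6PC2 window held TATAAA from -29 to -24 and CATCTG, on the other strand, from -84 to -79.

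Of the 35116 such windows, which belong to 27305 genes, 10.7% held TATAAA, 2.42% TATATAA, 1.65% TGACGTCA, 12.2% CATCTG and 5.57% CTAATG. Counted by gene, since some genes have several windows, the shares were 13.0%, 2.98%, 2.03%, 14.6% and 6.83%. Among the 100 protein-coding genes with the highest mean FPKM, 83 had a window, and of these 83 genes 10 held TATAAA, 9 (10.8%) TATATAA, 6 (7.23%) TGACGTCA, 7 (8.43%) CATCTG and 3 (3.61%) CTAATG. Among the granule genes below, 24 had a window, of which 4 held TATAAA, 1 TATATAA, 4 TGACGTCA, 3 CATCTG and 1 CTAATG. The 4 with TGACGTCA were CHGA, PCSK1, SLC18A2 and VGF. These matches describe letters in a window and were not tested as binding sites.

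Expression was broad: 13711 genes, 12038 of them protein-coding, reached a mean of 1 FPKM, 7146 reached 10, 555 reached 100 and 15 reached 1000. The median was 4.52 FPKM over all genes with an entry and 10.6 FPKM over the expressed ones. The summed FPKM was nevertheless concentrated, since 741, 733 and 722 genes made up 50% of it in the 3 libraries and the 10 highest genes 12.7% on average. INS alone took 5.27%, 6.002% and 6.71% of the summed FPKM, but 0.941%, 1.07% and 1.201% of the expected counts, its listed length being 471 bases against 2078 for CHGA.

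After INS and CHGA the highest loci included GNAS, FTL, EEF1A1, TTR and ACTG1. GNAS, the stimulatory G protein subunit that couples receptors to cyclic AMP, had 3310.2, 4057 and 4126 FPKM. FTL, the ferritin light chain, had 2774, 2396 and 2202 FPKM, and TTR, the thyroid hormone carrier transthyretin that islet cells also make, 1701, 1512 and 1333 FPKM. In GNAS replicate 1 was the lowest library, and in FTL and TTR it was the highest. EEF1A1, a translation elongation factor, averaged 1575 ± 45.5 FPKM and ACTG1, a cytoplasmic actin, 1486 ± 32.03 FPKM. GAPDH, ATP5F1E, CPE, TUBA1B and RPLP0 were the other protein-coding genes above 1000 FPKM. CPE, the carboxypeptidase that trims prohormones, was among the steadiest of these at 1013, 1047 and 1022 FPKM. The 28S ribosomal RNA locus RNA28SN5 had 5537, 5013 and 5443 FPKM, and 2 unmatched loci of 89 and 74 bases averaged 4263 and 1435 FPKM. The values of these short loci rest on 3637 and 878 expected counts on average and were not taken further.

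Ribosomal protein genes formed a large group near the top. The 99 with an entry had a median of 391 FPKM, made up 9.24%, 9.24% and 9.09% of the summed FPKM, and supplied 27 of the 60 highest protein-coding genes. RPLP0 averaged 1008 ± 40.8 FPKM, RPL41 949 ± 18.6 and RPLP1 924 ± 59.4. Many of these genes, like FTL, EEF1A1, ACTG1 and GAPDH, have processed pseudogenes nearly identical to them, and how shared reads were divided is not given in the sources used here. Ranked by expected count the order was RNA28SN5, CHGA, INS, GNAS, EEF1A1, SCD, ACTG1, CPE, FTL and ERO1B. SCD, the stearoyl-CoA desaturase of fatty acid synthesis, averaged 61321 counts and 700.1 ± 11.8 FPKM, and ERO1B, the oxidase that supports disulfide bonds in the endoplasmic reticulum (ER) of endocrine pancreas, 32800 counts and 404 ± 24.98 FPKM. Of the 30 highest genes by FPKM 14 were also among the 30 highest by count.

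**Figure D2:**
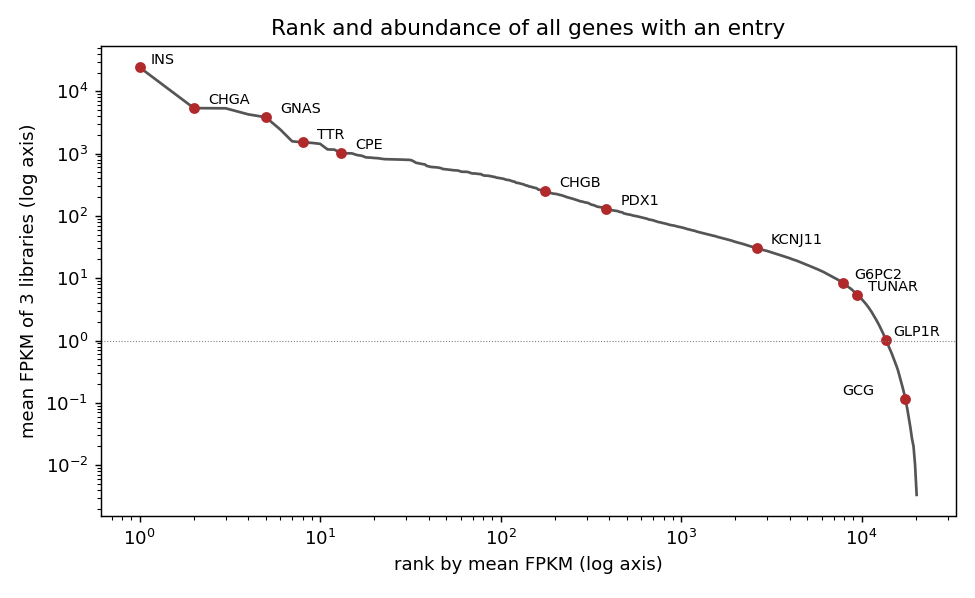
Mean FPKM of the 3 control libraries against rank for the 20181 genes with an entry, both on log axes, with named genes as points and 1 FPKM as a dotted line. INS stands 4.52 times above CHGA, and GLP1R lies at the threshold while GCG lies below it.

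Of 26 islet and gut hormone genes, 16 had an entry and 8 were expressed, and their sum was almost all INS. Beside INS and IAPP these were SCT, UCN3, SST, POMC, NPY and ADCYAP1. SCT, the gene of secretin, had 31.5, 38.9 and 40.7 FPKM, UCN3, the peptide that beta cells release to drive somatostatin secretion, 19.2, 23.8 and 17.8 FPKM, and POMC, the precursor of corticotropin and endorphin, 16.1, 12.4 and 13.7 FPKM. All 3 exceeded 10 FPKM in every library. SST, the somatostatin gene of delta cells, had 46.1, 7.16 and 7.31 FPKM, so its mean of 20.2 FPKM rests on replicate 1. NPY had 0.69, 1.83 and 1.26 FPKM and ADCYAP1, the PACAP peptide, 1.21, 1.0 and 1.46 FPKM, on both sides of the threshold or at it. In bulk RNA, fewer cells of a type and less RNA per cell cannot be told apart, so these values do not say whether a few cells or all cells held SST RNA.

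Other hormone genes stood near 0. GCG, the glucagon gene of alpha cells, had 0.10, 0.15 and 0.10 FPKM, GHRL, the ghrelin gene of epsilon cells, 0.78, 0.08 and 0.31 FPKM, and PYY 0.12, 0.12 and 0.30 FPKM, with mean expected counts under 10 in each. The same held for GAST, NTS, GNRH1, CARTPT and CRH. PPY, the pancreatic polypeptide gene, had no entry in the 3 files, which list only genes above 0, and neither did GIP, CCK, VIP, TRH, GAL, PENK, TAC1, MLN or NMU. The INS locus also gives rise to the readthrough transcript INS-IGF2, which stood at 8.47, 5.73 and 8.08 FPKM and shares sequence with both genes, so its reads cannot be separated with certainty.

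Granule proteins and the enzymes that process hormones were expressed as a group: 34 of 36 reached 1 FPKM, 29 reached 10 and 14 reached 100, with a median of 78.7 FPKM. They took 2.85%, 2.85% and 2.75% of the summed FPKM without INS. PCSK1N, a granin-like inhibitor of prohormone convertase 1, averaged 802 ± 59.5 FPKM. The convertases that cut proinsulin had 163, 171 and 172 FPKM for PCSK1 and 203, 202 and 202 FPKM for PCSK2. PCSK2 differed by less than 1% between its highest and lowest library and was among the 10 steadiest of the genes with at least 50 FPKM. SCG3 averaged 206 ± 5.596 FPKM, SCG5, the chaperone of convertase 2, 140.0 ± 3.59, and SCG2 97.8 ± 11.7. SLC30A8, the zinc transporter of insulin granules, had 89.2, 125 and 116 FPKM with replicate 1 lowest, while VGF, a granin-like protein, had 69.7, 50.1 and 48.05 FPKM with replicate 1 highest. PAM, which amidates peptide hormones, had 36.9, 30.1 and 29.97 FPKM.

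Genes of the release machinery were present in every library. The SNARE genes STX1A and SNAP25 averaged 94.6 ± 6.36 and 51.9 ± 1.56 FPKM and VAMP2 28.9 ± 2.81 FPKM. SYT7 and SYT13, of the synaptotagmin family, averaged 27.9 ± 3.003 and 62.5 ± 1.87 FPKM. RAB3A, a small GTPase of vesicle release, averaged 4.12 ± 0.498 FPKM against 25.7 ± 1.96 FPKM for RAB27A, and their values did not overlap. SLC18A2, the vesicular monoamine transporter, had 3.1, 4.04 and 3.99 FPKM, CADPS2 lay below 1 FPKM and SLC18A1 had no entry.

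Transcription factors of beta cells and of the islet were nearly complete, with 30 of 32 expressed and a median of 19.6 FPKM. INSM1, a zinc finger factor of endocrine differentiation, was the highest at 290.4, 342 and 369 FPKM. MAFA, an activator of the insulin gene, had 28.5, 39.9 and 45.7 FPKM. Both were lowest in replicate 1. NEUROD1, a basic helix-loop-helix partner at the insulin E box, had 63.8, 78.5 and 79.1 FPKM and ISL1 64.02, 66.2 and 62.6 FPKM. FOXA2 averaged 60.7 ± 1.68 FPKM, and NEUROD1, ISL1, PAX6, FOXA2 and NKX2-2 form a run of neighbours whose values overlap in turn. That order is by FPKM, and by expected count, which is not per length, PAX6 stood above PDX1. RFX6, a factor of endocrine formation and of insulin secretion in human beta cells, had 22.4, 32.8 and 33.8 FPKM, again with the lowest value in replicate 1.

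HNF4A averaged 25.4 ± 1.06 FPKM, GLIS3 16.3 ± 0.316 and MNX1 31.8 ± 1.78. At the lower end TCF7L2, a Wnt effector and type 2 diabetes gene, had 0.96, 0.89 and 1.17 FPKM and LMX1B 0.86, 1.1 and 1.04 FPKM, so these 2 straddled the threshold. BHLHE22 had 0.11, 0.18 and 0.26 FPKM. ONECUT1 was listed in replicate 3 alone, at 0.03 FPKM, and its mean expected count was under 10. Over the 28 factors with a mean expected count of at least 100, 25 were lower in replicate 1 than in the mean of replicates 2 and 3, with a median log2 difference of -0.17, beside 5824 of the 11645 genes above that count. Only the 3 libraries of this group were used for that count, which describes them and carries no test.

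**Figure D3:**
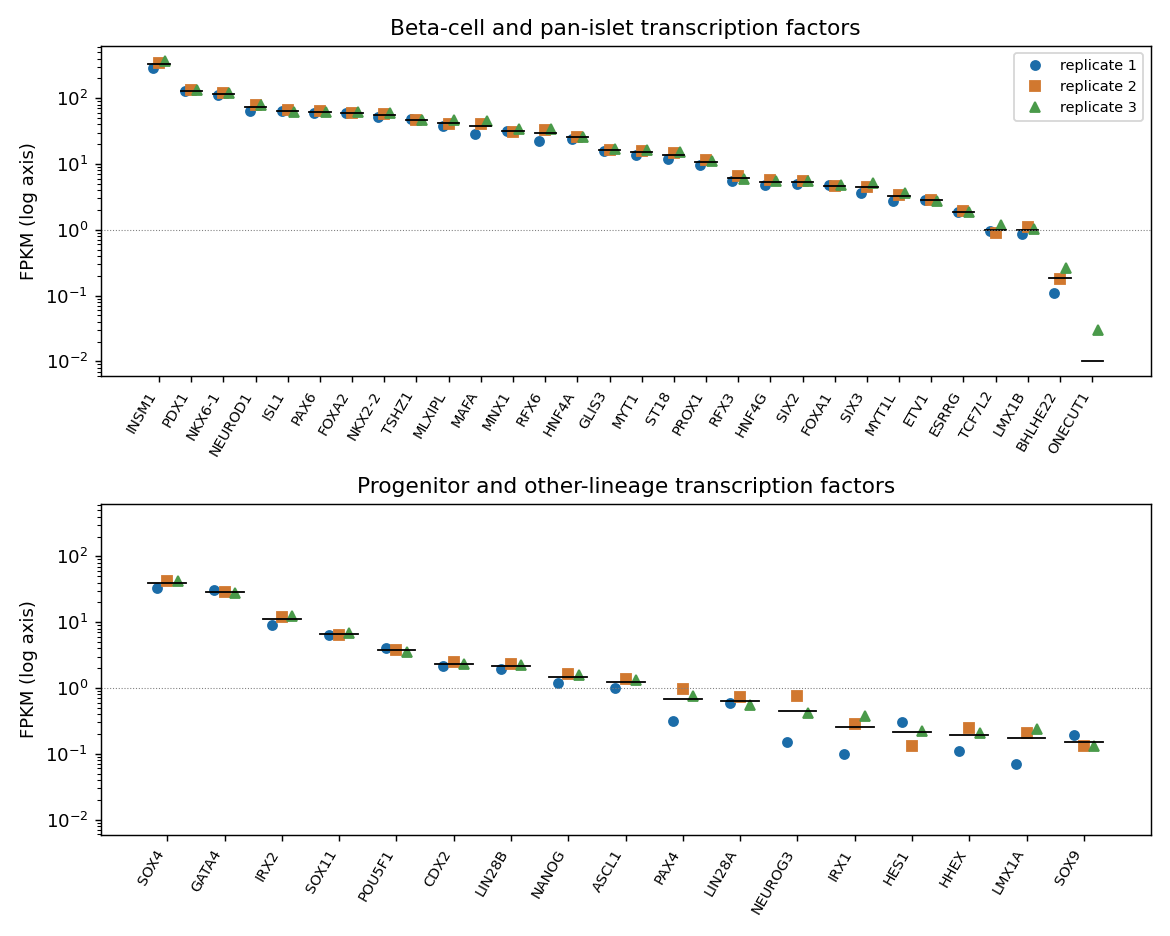
FPKM on a log axis of members of the lists of beta-cell and pan-islet transcription factors (top) and of progenitor and other-lineage factors (bottom), with 1 point for each control library and a bar at the mean; a library in which a gene was not listed has no point. INSM1 and PDX1 lead the members shown of the first list, while SOX9 and HHEX lie below the dotted line at 1 FPKM.

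Factors of progenitors and of other islet or gut lineages were expressed in 9 of 23 cases, with a median of 0.68 FPKM over the 19 with an entry. SOX4 led with 32.8, 42.3 and 42.8 FPKM, and GATA4, a factor of early pancreas and other endoderm, followed with 30.6, 28.6 and 27.7 FPKM. IRX2, known from alpha cells, had 9.0, 11.9 and 12.4 FPKM and SOX11 averaged 6.57 ± 0.1801 FPKM. Other factors of endocrine fates were low: HHEX of delta cells had 0.11, 0.25 and 0.21 FPKM and PAX4 0.32, 0.97 and 0.76 FPKM. NEUROG3, the factor that starts endocrine differentiation, had 0.15, 0.76 and 0.41 FPKM. The progenitor and duct factor SOX9 averaged 0.15 ± 0.0346 FPKM, and PTF1A, GATA6, SOX17 and POU3F4 had no entry. POU5F1 and NANOG, pluripotency genes with many near-identical pseudogenes, averaged 3.79 ± 0.306 and 1.47 ± 0.225 FPKM and are uncertain for that reason.

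Genes of glucose uptake and of the first steps of its use were expressed in 22 of 31 cases, with a median of 8.13 FPKM. Of the 31, 30 had an entry, and 67.9% of all genes with an entry were expressed. The hexokinases HK1, HK2 and HK3 stayed at or below 0.1 FPKM in each library, with mean expected counts under 10. Among glucose transporters SLC2A1 had 16.4, 18.2 and 18.8 FPKM, against 0.83, 1.09 and 1.02 FPKM for SLC2A2, the transporter of rodent beta cells, and their values did not overlap. SLC2A3 averaged 0.393 ± 0.196 FPKM. PKM, pyruvate kinase of muscle and many other cells, had 252, 257 and 257 FPKM, PFKL 60.8, 60.8 and 59.3 FPKM and PFKFB2, which tunes phosphofructokinase, 42.1, 44.6 and 42.99 FPKM. GPD2, of the mitochondrial glycerol phosphate shuttle, had 20.3, 24.5 and 24.4 FPKM. G6PC2, the islet glucose-6-phosphatase subunit, had 2.12, 8.59 and 14.4 FPKM and was the member with a ratio of at least 2 among the 22 with a mean expected count of at least 100.

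Disallowed genes are those that beta cells hold low while most tissues express them, and 12 of 20 reached 1 FPKM here, a share of 60% beside the 67.9% of all genes with an entry. LDHA, lactate dehydrogenase A, had 97.1, 94.6 and 90.05 FPKM and LDHB 117, 127 and 125 FPKM. SLC16A1, a lactate and pyruvate carrier whose misplaced expression causes exercise-induced insulin release in people, had 15.5, 17.6 and 18.7 FPKM. FCGRT, the neonatal Fc receptor, averaged 157 ± 7.82 FPKM, C1QBP 70.3 ± 9.02, ACOT7 25.9 ± 3.403, CAT, catalase, 22.97 ± 3.61 and CXCL12 21.3 ± 4.62. Others were held low: REST, a repressor of neuronal genes, had 1.11, 0.30 and 0.32 FPKM, PDGFRA 0.02, 0.02 and 0.03 FPKM, and HK1, MGST1 and SMOC2 had mean expected counts under 10.

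KATP and calcium channel subunits were expressed in 12 of 19 cases, with a median of 3.49 FPKM. All 19 had an entry, and their share of 63.2% is near the 67.9% of all genes with an entry. ABCC8, the sulfonylurea receptor of the KATP channel, had 35.4, 38.4 and 41.8 FPKM and KCNJ11, its pore, 25.8, 30.99 and 34.6 FPKM. Both were lowest in replicate 1 and highest in replicate 3. CACNA2D1, an auxiliary subunit of voltage-gated calcium channels, was the highest of the list at 107, 105 and 97.4 FPKM. Among the pores, CACNA1H of T-type channels had 18.1, 21.7 and 20.7 FPKM, followed by the L-type CACNA1D with 7.24, 6.82 and 6.98 and CACNA1C with 4.98, 4.86 and 4.81 FPKM. CACNA1B (N-type) and CACNA1A (P/Q-type) averaged 3.74 ± 0.151 and 3.49 ± 0.532 FPKM with overlapping values, and CACNA1E (R-type) was at 0.05 to 0.06 FPKM. CACNB3 was the highest beta subunit at 5.52, 6.27 and 6.85 FPKM.

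Of 48 other channel genes, 47 had an entry and 30 were expressed, beside 67.9% of all genes with an entry, and 2 exceeded 100 FPKM. These were KCNK16, the islet potassium leak channel TALK-1, with 135, 146 and 131 FPKM, and TMEM37, a gamma-like calcium channel subunit, with 102, 114 and 111 FPKM. KCNK17, the related TALK-2, had 65.99, 77.7 and 73.3 FPKM and KCNH2, the hERG channel, 66.5, 70.9 and 67.2 FPKM. KCNJ3, a G protein-gated channel subunit, averaged 29.6 ± 1.35 FPKM and ITPR3, an inositol trisphosphate receptor, 22.5 ± 0.486. KCNB2, a delayed rectifier, had 8.95, 9.76 and 11.2 FPKM. SCN3B, an auxiliary sodium channel subunit, averaged 17.3 ± 0.933 FPKM, while the pore genes SCN8A, SCN9A and SCN3A averaged 2.64 ± 0.0513, 2.07 ± 0.236 and 0.48 ± 0.0781 FPKM.

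Receptors that control insulin release were expressed in 23 of 44 cases, with a median of 2.31 FPKM over the 35 with an entry. Among those 35 the 23 are near the share of all genes with an entry, 67.9%. FFAR1, the receptor of long-chain fatty acids, had 101, 104 and 110.5 FPKM and CASR, the calcium-sensing receptor, 50.6, 62.5 and 61.2 FPKM. Somatostatin receptors came next: SSTR2 had 37.3, 48.6 and 47.5 FPKM, SSTR1 33.8, 31.2 and 30.4 FPKM and SSTR3 25.8, 32.01 and 31.8 FPKM, whereas SSTR5 had 3.5, 2.6 and 1.95 FPKM. The incretin receptors lay apart, with 12.7, 12.7 and 14.6 FPKM for GIPR, of the gut hormone GIP, and 1.0, 1.09 and 1.01 FPKM for GLP1R, of GLP-1. GCGR, the glucagon receptor, had 0.15, 0.28 and 0.22 FPKM and a mean expected count under 10. ADRA2A, through which adrenaline restrains secretion, had 8.71, 10.03 and 9.03 FPKM, GPBAR1, a bile acid receptor, 12.1, 14.1 and 14.6 FPKM and GPR119 3.13, 4.21 and 3.76 FPKM. CHRM3, the muscarinic receptor of beta cells, had 2.98, 2.8 and 3.24 FPKM. ADGRG1, an adhesion receptor abundant in islets, had 2.09, 5.56 and 5.81 FPKM, the widest ratio among the 18 of this list with a mean expected count of at least 100. MTNR1B, HTR2B, CNR1, GABBR2, HTR1F and VIPR1 had mean expected counts under 10.

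Receptors for growth factors, cytokines and nuclear hormones were expressed in 24 of 37 cases, of which 34 had an entry, beside 67.9% of all genes with an entry. ACVR1C, a receptor of activin-type ligands also called ALK7, led with 58.3, 82.8 and 84.9 FPKM. The glucocorticoid receptor NR3C1 averaged 29.5 ± 1.38 FPKM, FGFR3 28.8 ± 2.31 and BMPR1A 27.1 ± 1.299. The insulin and IGF-1 receptors INSR and IGF1R stood close together at 9.68, 9.07 and 8.94 and 11.3, 11 and 10.9 FPKM without overlapping. FGFR1, at 21.1, 14.3 and 12.2 FPKM, was highest in replicate 1, and RXRG, a retinoid X receptor, was lowest there at 4.06, 8.39 and 9.25 FPKM. PRLR, the prolactin receptor that expands beta cells in rodents, averaged 0.13 ± 0.0265 FPKM, and ESR1 0.03 ± 0.01 FPKM.

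Genes tied to beta-cell maturity were expressed in 23 of 25 cases, with a median of 20.3 FPKM. HADH, a fatty acid oxidation enzyme whose loss causes hyperinsulinism in people, had 482, 547 and 501 FPKM. NPTX2, a pentraxin, averaged 119.6 ± 10.3 FPKM and CDKN1C, the cell cycle inhibitor p57, 80.6 ± 10.1. ENTPD3, an ectonucleotidase that marks mature beta cells, had 3.15, 2.9 and 2.89 FPKM, and RASGRP1 lay below 1 FPKM at 0.47, 0.55 and 0.55. SIX2 and SIX3, factors that appear with age in human beta cells, averaged 5.29 ± 0.347 and 4.42 ± 0.718 FPKM.

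Of 30 monogenic diabetes genes 23 were expressed. Beyond those already described, PCBD1, an enzyme of tetrahydrobiopterin recycling, averaged 129.6 ± 3.77 FPKM, WFS1, the ER protein of Wolfram syndrome, 48.02 ± 2.58, and IER3IP1 49.2 ± 1.97. NEUROG3 and CEL had mean expected counts under 10, and BLK, PTF1A and GATA6 had no entry. Of 11 autoantigens of type 1 diabetes 10 were expressed. PTPRN, the IA-2 antigen, had 211, 189 and 179 FPKM, TSPAN7 169, 171 and 168 FPKM and PTPRN2 114, 121 and 119 FPKM. GAD2, a glutamate decarboxylase that makes the transmitter GABA, had 44.4, 44.3 and 44.8 FPKM, and GAD1, the related enzyme, had 0.05, 0 and 0.05 FPKM.

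Neural genes that endocrine cells share with neurons were expressed in 21 of 25 cases, with a median of 15.4 FPKM. STMN1, which destabilises microtubules, averaged 511 ± 27.96 FPKM, UCHL1, a ubiquitin hydrolase, 339 ± 1.28, SYP, synaptophysin of small vesicles, 260.0 ± 2.78 and STMN2 106 ± 5.91. UCHL1, like PCSK2, was among the 10 steadiest of the genes with at least 50 FPKM. RBFOX3 and NEFL, of mature neurons, stood below 1 FPKM, and STMN4 was listed in 1 library. Of 23 genes of neurotransmitter synthesis and transport 11 were expressed. DDC, which makes dopamine and serotonin from their precursors, had 73.7, 75.04 and 65.6 FPKM, ABAT, which breaks down GABA, 40.7, 42.8 and 36.3 FPKM and SLC17A6, a vesicular glutamate transporter, 18.1, 14.4 and 14.5 FPKM. The serotonin enzymes TPH1 and TPH2 averaged 0.757 ± 0.195 and 1.7 ± 0.18 FPKM, and TH, the dopamine-forming hydroxylase, 0.333 ± 0.0757.

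Epithelial and adhesion genes were expressed in 13 of 15 cases. EPCAM averaged 371 ± 4.16 FPKM, KRT8 169 ± 9.99, KRT18 69.8 ± 5.72, CLDN7 64.3 ± 2.07 and CDH1, E-cadherin, 45.8 ± 3.37. CDH2, N-cadherin, averaged 18.2 ± 1.47 FPKM. GJD2, the connexin of the beta-cell gap junction, had 6.0, 7.39 and 8.03 FPKM and GJA1 0.02 to 0.04 FPKM.

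Markers of other cell types were examined list by list, with the highest members and the defining ones. An entry was present for 12 of 13 alpha-cell genes, 10 of 12 of delta, PP and epsilon cells, 10 of 18 acinar and 11 of 14 duct genes. It was present for 11 of 15 fibroblast, 7 of 11 endothelial, 8 of 15 immune, 4 of 7 Schwann-cell, 11 of 12 liver and 8 of 11 gut genes. The alpha-cell list was the exception among these lists: 10 of 13 members were expressed, with a sum of 496 to 659 FPKM and a median of 14.5, although GCG stayed near 0. Its highest members were CRYBA2, a crystallin, with 203, 337 and 385 FPKM, GC, the vitamin D binding protein, with 116, 128 and 119.6 FPKM, and SMIM24. DPP4, the protease that inactivates incretins, had 44.1, 35.5 and 33.8 FPKM, TM4SF4 averaged 32.6 ± 0.725 FPKM and LOXL4 1.43 ± 0.223, and FAP had no entry. In the list of delta, PP and epsilon cells 6 of 12 were expressed with a sum of 49.0 to 94.3 FPKM, led by ACSL1, a fatty acid ligase, with 31.9, 26.2 and 27.4 FPKM and then SST. HHEX and GHRL had mean expected counts under 10, and PPY and BCHE had no entry.

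Few members of the exocrine and stromal lists were expressed, but KRT19, ANXA4 and CPA1 exceeded 10 FPKM in every library. Of 18 acinar genes 2 were expressed, with a sum of 19.7 to 26.7 FPKM that was mostly CPA1, a carboxypeptidase, at 15.7, 22 and 19 FPKM, and SPINK1 at 2.66, 3.15 and 3.07 FPKM. PRSS1, CELA3A and PNLIP had no entry, and CTRB1, CPB1 and AMY2A had mean expected counts under 10. The duct list had 4 of 14 expressed and a sum of 67.9 to 76.6 FPKM. KRT19, a keratin of duct cells, had 33.4, 35.2 and 39.98 FPKM and ANXA4 30.1, 21.8 and 18.5 FPKM, while KRT7 averaged 0.727 ± 0.388 FPKM and CFTR 0.01. Fibroblast and stellate markers were expressed in 3 of 15 cases, with a sum of 6.99 to 7.89 FPKM: FN1, fibronectin, had 2.74, 3.68 and 4.66 FPKM, TAGLN 1.81, 1.24 and 1.05 FPKM and RGS5 1.4, 1.1 and 1.25 FPKM. COL1A1 had 1.1, 0.78 and 0.62 FPKM, COL1A2, PDGFRB and DCN had mean expected counts under 10, and LUM had no entry.

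Endothelial markers were expressed in 2 of 11 cases with a sum of 4.94 to 5.68 FPKM, led by ESAM at 2.93, 3.1 and 3.12 FPKM, while PECAM1 averaged 0.52 ± 0.0265 FPKM and VWF and CDH5 had no entry. The immune list had 4 of 15 expressed and a sum of 46.4 to 60.9 FPKM. These were CD74, the invariant chain of class II molecules, with 21.8, 22.8 and 18.5 FPKM, CD68, a lysosomal protein, with 26.9, 19.5 and 13.7 FPKM, LYZ with 10.3, 9.01 and 10.9 FPKM and CD14. The pan-leukocyte gene PTPRC had 0.60, 0.36 and 0.88 FPKM, and CD3E and HLA-DRA had no entry. Of 7 Schwann-cell markers only ERBB3 was expressed, at 14.8, 13.2 and 9.54 FPKM, with SOX10 without an entry. The liver list had 4 of 12, and its sum of 1376 to 1762 FPKM was mostly TTR, followed by SERPINA1 with 46.9, 37.1 and 32.4 FPKM and APOB with 8.0, 7.27 and 5.96 FPKM. ALB, albumin, was at 0.03 and 0.06 FPKM in replicates 1 and 3 and not listed in replicate 2.

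Gut genes were expressed in 3 of 11 cases with a sum of 311 to 330 FPKM. VIL1, villin of the brush border, had 249, 254 and 244 FPKM, CDH17, an intestinal cadherin, 77.6, 71.3 and 62.3 FPKM and CDX2, the intestinal homeobox factor, 2.19, 2.46 and 2.31 FPKM. FABP2 and LGR5 had mean expected counts under 10, and MUC2 had no entry. Replicate 1 had the highest sum of the delta, duct, immune, Schwann-cell and liver lists and the lowest sum of the alpha-cell, acinar and endothelial lists. The excess in the delta list was mostly SST and that in the liver list mostly TTR. In the gut list replicates 1 and 2 were level, at 329.8 and 329.7 FPKM, and replicate 3 had 311 FPKM. Within the duct list ANXA4 was highest and KRT19 lowest in replicate 1. The part of other cells in the differences between replicates was not tested.

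**Figure D4:**
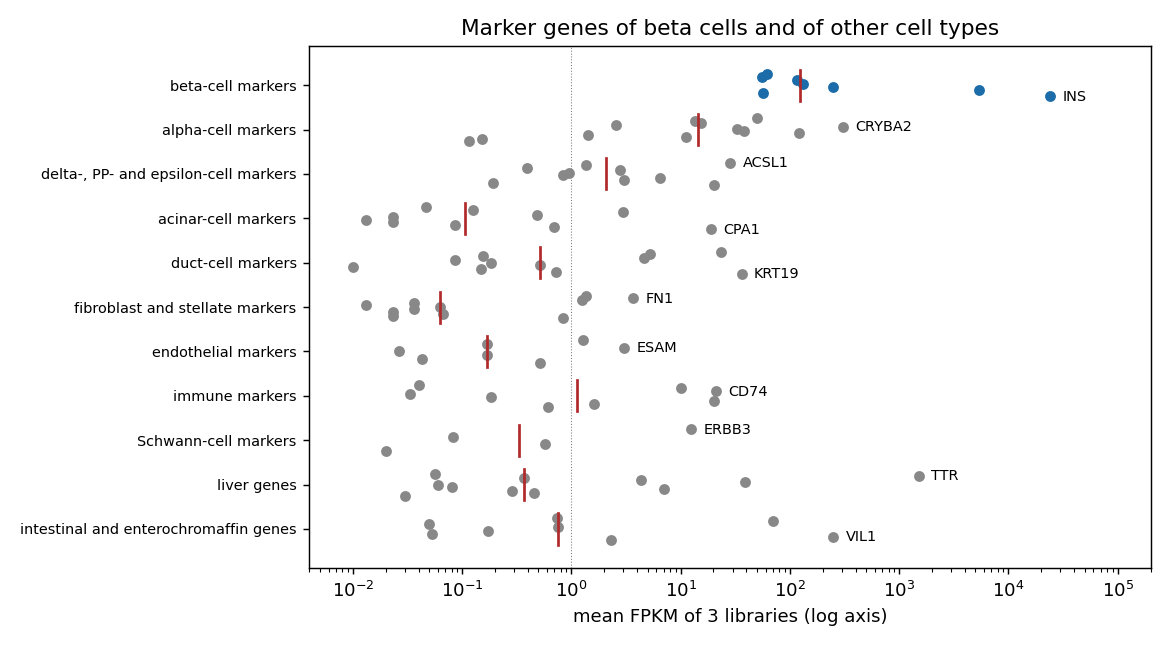
Mean FPKM on a log axis of each marker with an entry, as 1 point per gene, for beta cells (top) and 10 other lists, with a red bar at the median of the genes with an entry and the highest gene named. Beta-cell markers range from 55.9 to 24251 FPKM, and among the other lists the alpha-cell list has the highest median, 14.5 FPKM.

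Cell cycle genes were expressed in 24 of 28 cases, with a median of 37.1 FPKM. PCNA, the replication clamp, had 294, 306 and 323 FPKM and CDKN2C, the inhibitor p18, 167, 141 and 148 FPKM. TOP2A, a topoisomerase, had 185, 119 and 127 FPKM, CDK1 116, 80.2 and 85.8 FPKM and CCNB1, cyclin B1, 72.5, 42.9 and 45.4 FPKM. These 3 were highest in replicate 1. Of the 25 genes of the list with a mean expected count of at least 100, 15 were lower there than in the mean of the others. That count stands beside 5824 of all 11645 genes above that count, and the median log2 difference of the 25 was -0.08. MCM2, of the replication helicase, had 70.1, 88.02 and 91.3 FPKM with replicate 1 lowest. CDKN1A, the cell cycle inhibitor p21, had 7.98, 3.98 and 3.73 FPKM. Of the D cyclins CCND3 averaged 37.1 ± 0.633 FPKM, and CCND1 had at most 0.04 FPKM in any library and a mean expected count under 10. MYCN averaged 22.7 ± 3.55 FPKM against 0.45 ± 0.139 FPKM for MYC. TERT, the telomerase subunit that was also introduced into this line, had 2.55, 2.25 and 2.25 FPKM, and the files do not separate endogenous from introduced copies.

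Wnt and GSK3 genes, the pathway that the series' inhibitor addresses, were expressed in 23 of 31 cases, with a median of 6.67 FPKM. Of the 31, 29 had an entry, and 67.9% of all genes with an entry were expressed. CTNNB1, beta-catenin, had 118, 113 and 102 FPKM, GSK3A 39.4, 36.99 and 38.5 FPKM and GSK3B 25.9, 24.03 and 23.3 FPKM. LRP5, a Wnt co-receptor, averaged 21.4 ± 0.307 FPKM, FZD1 18.9 ± 0.67 and LGR4 12.7 ± 2.898. AXIN2, a negative regulator that Wnt signalling induces, had 2.24, 2.19 and 2.66 FPKM. Of the nuclear effectors TCF7 averaged 1.83 ± 0.176 FPKM and TCF7L1 lay near 0, while LEF1 and DKK1 had no entry. Among the ligands WNT5A, WNT4 and WNT5B averaged 6.71 ± 1.41, 6.67 ± 0.1701 and 6.25 ± 0.719 FPKM.

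All 29 genes of ER folding and stress were expressed, with a median of 96.9 FPKM. CALR, calreticulin, averaged 582 ± 36.3 FPKM, HSP90B1 556 ± 38.6, P4HB, protein disulfide isomerase, 424 ± 8.06 and HSPA5, the chaperone BiP, 216 ± 7.65. The sensors were lower: EIF2AK3 averaged 6.58 ± 0.0208 FPKM, ATF6 11.6 ± 1.05 and ERN1 2.92 ± 0.541. XBP1 had 102, 110.0 and 108 FPKM and DDIT3, the stress factor CHOP, 12.8, 9.71 and 9.38 FPKM. Of 29 antioxidant genes 25 were expressed, with a median of 38.8 FPKM. PRDX2 and PRDX4, peroxiredoxins, averaged 299 ± 22.2 and 217 ± 2.08 FPKM, SOD1 137 ± 9.29 and GPX4 135 ± 9.03. HMOX1, heme oxygenase 1, stood at 0.20 and 0.04 FPKM in replicates 1 and 3 and was not listed in replicate 2. The metallothioneins MT1X and MT2A were highest in replicate 1, at 78.02, 43.6 and 40.6 and 22.9, 11.2 and 12.6 FPKM.

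Long noncoding RNAs took 1.91%, 1.86% and 1.89% of the summed FPKM, and 1032 of 2563 with an entry were expressed, with a median of 2.82 FPKM. SNHG29, a small nucleolar RNA host, averaged 242 ± 8.18 FPKM, NORAD, a cytoplasmic RNA that binds Pumilio proteins, 196 ± 5.19, SNHG32 128 ± 4.43 and LINC00987 126 ± 10.2. MEG3, an imprinted RNA of beta cells, had 67.9, 71.7 and 82.5 FPKM. PCNA-AS1 averaged 211 ± 11.8 FPKM, but it is antisense to the protein-coding gene PCNA. No strand marking is stated for these libraries, so reads from the 2 strands cannot be told apart.

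Most genes varied little between replicates. Among 11645 genes with a mean expected count of at least 100 and an entry in all 3 libraries the median CV was 6.04%, and the highest library exceeded the lowest 1.5 times in 382 (3.28%) and 2 times in 47 (0.404%). In 293 of the 382 replicate 1 was the library farther from the other 2, as it was in 32 of the 47, beside 5979 of all 11645. The common biological coefficient of variation, estimated by edgeR from rounded expected counts, was 8.25%. Without replicate 1 it was 3.80%, and 12 genes in place of 47 differed 2 times. Of the 8 beta-cell markers, the 33 granule genes and the 29 ER genes above this count none reached a ratio of 1.5. Of the 28 beta-cell factors 2 did, MAFA and RFX6, and of the 25 cell cycle genes 4 did, beside the 3.28% of all genes. In the antioxidant list it was 4 of 24, with the metallothioneins MT1X and MT2A among them.

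Several of the widest ratios, but not all, fell on loci that share sequence. ARL2-SNX15, a readthrough transcript, had 15.3, 0.40 and 13.9 FPKM and SNX15, within it, 1.96, 15.9 and 1.04 FPKM, so that the locus with reads changed from library to library. NUDT4B and NUDT4P2, near-identical copies of NUDT4, had 1.69, 13.97 and 6.2 and 15.02, 3.43 and 12.3 FPKM. How reads shared by such copies were divided was not tested, so these values are uncertain. Among genes without a listed copy G6PC2 had a highest-to-lowest ratio of 6.80 and SST of 6.44. VTN, vitronectin, had 31.3, 16.1 and 10.1 FPKM, and ANXA13 7.96, 4.84 and 3.29 and PPIC 9.94, 5.84 and 4.23 FPKM. IGFBP5, which binds insulin-like growth factors, had 15.9, 38.2 and 38.9 FPKM. VTN, ANXA13 and PPIC were highest in replicate 1 and lowest in replicate 3, and IGFBP5 was low in replicate 1 alone. The RNAs of the signal recognition particle RN7SL1 and RN7SL2, which are not polyadenylated, had 56.7, 25.1 and 64.01 and 98.2, 47.6 and 149.7 FPKM and were lowest in replicate 2.

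**Figure D5:**
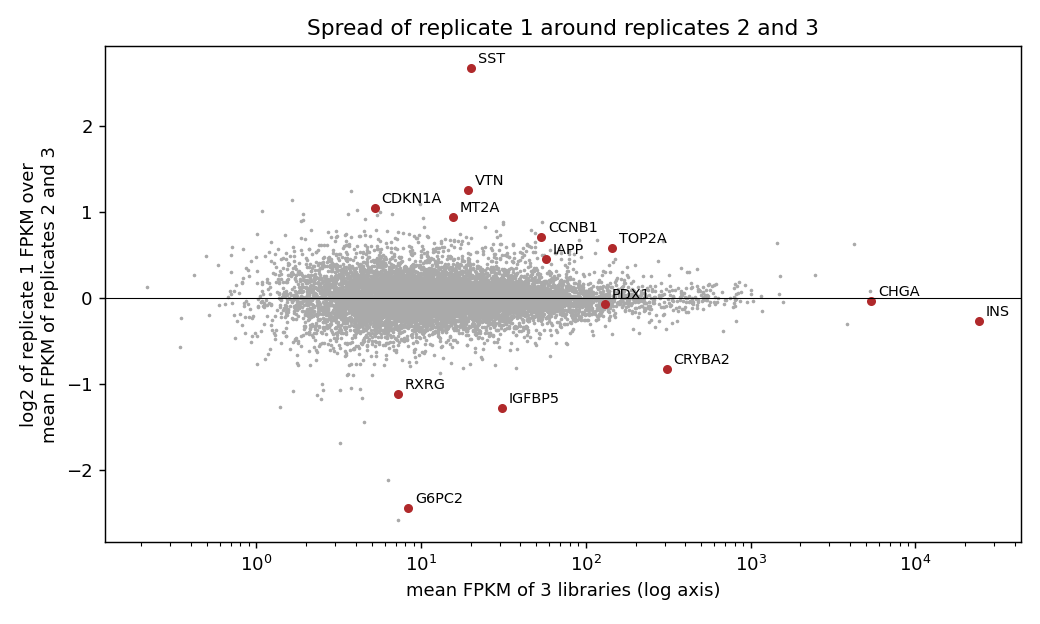
Log2 ratio of replicate 1 to the mean of replicates 2 and 3 against mean FPKM on a log axis, for the 11645 genes with a mean expected count of at least 100 and an entry in all 3 libraries, with named genes in red. SST, VTN and CDKN1A lie above 1 on this scale and G6PC2, IGFBP5 and RXRG below -1, while CHGA and PDX1 lie near 0.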

How the data were processed

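RNA of EndoC-βH1 cells was enriched for polyadenylated transcripts and sequenced on an Illumina HiSeq instrument, per the labels' protocols, with cDNA primed by random hexamers; whether strand was kept is not stated. The authors deposited, per the file headers, an expected count for each gene and library, which estimates its reads without scaling, and FPKM, which scale it by length and library total. The deposited length column, in bases and of no standard expression unit, gave the length behind each FPKM: the values corresponded to that length less 36.0 bases. The tools RSEM, Bowtie and BWA are listed in the submitters' processing notes, with GRCh37 and hg19 as builds, but with no versions and no role for each. Of the expected counts 35.6% to 35.8% were not whole numbers within 0.005.

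The 3 control libraries were joined by gene identifier. Of 20181 identifiers 20070 were matched to RefSeq symbols by gene ID, 24 by accession and 87 were not. A gene listed in some of the 3 libraries was taken as 0 where it was not listed. Levels are FPKM as deposited. Expressed means a mean of at least 1 FPKM, and ratios between libraries use genes with a mean expected count of at least 100. The common biological coefficient of variation came from rounded expected counts in edgeR 4.0.16 under R 4.3.3, with an intercept alone, TMM factors from 0.998 to 1.003 and a mean expected count of at least 10; DESeq2 1.42.0 gave the size factors of 1 alternative. Tables were made with Python 3.11.15 and pandas 2.3.3, and the spread estimate was tested on simulated data. Chi-square per degree of freedom of the counts was 7.49, 9.01 and 2.61 between replicates 1 and 2, 1 and 3, and 2 and 3, so none of the 3 is a duplicate of another. There is 1 group, so no test was made and no p-value is given.

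The named genes follow a rule: the 8 markers, the 30 genes highest by FPKM and the 10 highest by count, up to 6 members of each list with the highest mean, beta-cell genes with a mean expected count under 10, defining markers of other cell types, and the most variable genes with a mean of at least 5 FPKM. Some list members enter the counts and medians of their lists but are not reported here by name. Other list members were added where a role or contrast called for them, with their values known. The members, the 31 gene lists with 698 entries and the groups of the closing section were chosen with earlier results of these data known. Alternatives were other thresholds, scalings, counts in place of FPKM, leaving out each replicate, and passage 74 alone.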

Additional observations from a re-analysis of the deposited data

How the results depend on the processing

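No paired analysis was possible because the values come from 1 group and from no test. The limit was 1.5 times for counts of genes and the coefficient of variation, and 1 SD of the 3 libraries for other values. Within it lay 21 of the summary values under an alternative and 386 of those for markers and lists, and 10 and 28 lay outside. Leaving out 1 of 3 libraries always moves a mean by less than 1 SD, so the marker levels could not lie outside there. Passage 74 alone holds the same libraries as leaving out replicate 3 and was counted again. These totals are therefore no measure of how robust the levels are. The 10 most abundant genes took 12.7% of the summed FPKM, 7.57% of the counts when genes were ranked by expected count, and 11.6% among protein-coding genes alone, a setting added after the data were seen. The common biological coefficient of variation, 8.25%, ran from 3.80% without replicate 1 to 10.2% when 1 replicate was left out. The 47 genes with a ratio of at least 2 became 107 at a mean expected count of at least 50, 3 at 500, 21 with 1 FPKM added and 22 with whole counts only, also added after the data were seen. With 1 replicate left out they ran from 12 to 34, and passage 74 alone gave 27. Genes expressed ran from 12228 at 2 FPKM to 20181 at any value above 0. By expected count in place of FPKM the order of the markers changed: CHGA ranked 2 (2 by FPKM), INS 3 (1), CHGB 103 (177), PAX6 233 (1087), PDX1 379 (384), NKX6-1 1824 (454), NKX2-2 2053 (1227) and IAPP 2152 (1203). Precision is limited by 3 libraries and, for genes under 10 counts, by depth.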

Other observations

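Imprinted genes have at least some transcripts that are expressed from 1 parental copy, and many of them act in fetal growth. A set of them was examined after their values had been seen. All 15 chosen in this way were expressed, with a median of 75.2 FPKM, against 10.6 FPKM over all expressed genes, and since they were picked with their levels known this count says nothing about imprinted genes in general. GNAS was the highest of them. Its value is for the whole gene, not for single transcripts, so it does not show which parental copy was expressed. IGF2, the fetal insulin-like growth factor beside INS, had 310.0, 286 and 262 FPKM, and PLAGL1, a zinc finger gene linked to transient neonatal diabetes, 246, 301 and 288 FPKM. NDN had 157, 170.0 and 168 FPKM, MEST 117, 155 and 158 FPKM and PEG10 89.9, 70.1 and 69.7 FPKM. H19, the noncoding RNA of the IGF2 locus, had 26.3, 30.2 and 30.8 FPKM, and DLK1, the protein-coding partner of MEG3, 6.59, 7.7 and 8.14 FPKM. KCNQ1OT1 had 1.73, 1.74 and 1.84 FPKM.

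Some class I antigen presentation genes were also chosen after their values were seen. The 3 named here were highest in replicate 1, as were 4673 of the 11645 genes with a mean expected count of at least 100, and having been picked with their values known they say nothing about such genes in general. B2M, the shared light chain, had 552, 452 and 420.1 FPKM, HLA-C 36.9, 25.3 and 27.8 FPKM and HLA-B 6.57, 5.14 and 5.43 FPKM. These HLA genes are close copies of one another and vary between people, so the division of reads among them is uncertain.

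Several highly expressed genes outside the lists were also picked after their values were seen. ALDH1A1, a retinaldehyde dehydrogenase, had 311, 333 and 316 FPKM, SLC29A1, a nucleoside transporter, 266, 307 and 304 FPKM and ANXA10, an annexin, 220.4, 269 and 258 FPKM. SERPINI1, the serpin neuroserpin, had 120.4, 85.1 and 65.5 FPKM, highest in replicate 1. FADS2, a fatty acid desaturase, had 407, 395 and 417 FPKM and ATP2A3, a calcium pump of the ER, 283, 302 and 306 FPKM.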
